A study of Mus musculus with 32 samples.

Results

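Interferon-stimulated genes were followed in the gastrocnemius (GAS), the large calf muscle, of mice whose sciatic nerve had been cut. The genes were Stat2, Irf9, Irf7, Ifit1, Ifit3, Oasl2, Bst2, Isg15 and Usp18, taken by symbol from the deposited expression table through their Ensembl identifiers and GENCODE mouse release 21. They were 9 of the 33397 genes in the table, and all 9 were among the 22071 genes that passed the filter on low values and were tested. The 32 GAS samples fell into 8 groups of 4, taken 0, 1, 3, 5, 7, 14, 21 and 28 d after the operation. The mice were C57BL/6 by the labels, and the study's methods describe young C57BL/6J males from whose left hind leg a piece of the nerve was removed. The labels list sciatic nerve transection for the 0 d samples as well, whereas the methods describe sham mice that went through the surgery without transection, so the 0 d samples are called 0 d here. The question was how this set of genes moved over the 28 d after denervation.

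Type I interferons act through a receptor made of Ifnar1 and Ifnar2, whose kinases activate the transcription factor STAT2. STAT2 and IRF9 act in a complex that binds the interferon-stimulated response element in the promoters of its target genes. The targets include antiviral effectors, the master regulator Irf7, the ubiquitin-like modifier Isg15, and Usp18, which removes ISG15 from proteins and also damps the receptor. Muscle fibres, endothelium and leukocytes can all respond to interferon.

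The promoter sequences in which the core of that element was found are shown first. RefSeq promoter windows on GRCm38.p6, from 250 bases before to 50 bases after the start site, were found for 8 of the 9 genes, with windows at 2 start sites for Irf9. Usp18 was not among them. Both strands were searched for the core of the response element, GAAANNGAAA, in which N is any base. The core was present in the windows of 5 of these 8 genes (Ifit1, Ifit3, Isg15, Stat2 and Bst2), against 3.99% of the 27025 genes with a window. Each line gives the stretch around the matches in the direction of the gene, 5′ to 3′, with the matches to the core, or to its reverse complement, in capitals.
Ifit1, chr19:34640745-34640853, plus strand: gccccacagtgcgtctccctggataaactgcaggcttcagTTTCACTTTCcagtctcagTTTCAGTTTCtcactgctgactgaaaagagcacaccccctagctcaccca
Ifit3, chr19:34583333-34583456, plus strand: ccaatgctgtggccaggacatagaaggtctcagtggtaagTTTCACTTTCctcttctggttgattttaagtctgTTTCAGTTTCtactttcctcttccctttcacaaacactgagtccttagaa
Isg15, chr4:156200835-156200936, minus strand: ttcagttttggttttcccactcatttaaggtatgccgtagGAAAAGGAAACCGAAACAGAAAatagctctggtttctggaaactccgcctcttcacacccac
Bst2, chr8:71537547-71537642, minus strand: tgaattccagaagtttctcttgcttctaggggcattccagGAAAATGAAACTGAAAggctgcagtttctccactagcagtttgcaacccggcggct
Stat2, chr10:128270248-128270325, plus strand: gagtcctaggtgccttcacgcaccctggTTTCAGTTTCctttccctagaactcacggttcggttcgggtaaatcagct

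Ifit1 and Ifit3 each carried 2 separate matches, both in the reverse direction, of which TTTCAGTTTC also stood in the Stat2 window. Isg15 held 3 matches and Bst2 held 2, and in both genes the matches ran into each other, sharing copies of GAAA. The windows of Irf7, Irf9 and Oasl2 held no match, which says only that these letters are not in these windows. The core of the gamma-activated sequence, TTCNNNGAA, was present in the window of Bst2 and of none of the other 7, against 9.55% of all genes with a window, and it overlapped the first GAAA of the Bst2 matches. With 3 bases between the 2 copies of GAAA, 1 of the 8 genes (Ifit3) had a match, against 3.17% of genes. A match in a promoter is a description of the sequence and not of binding.

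In the annotation (GENCODE M21, GRCm38), Ifit1 lies at chr19:34640871-34650009 and Ifit3 at chr19:34583531-34588731, both on the plus strand of 1 gene cluster. Stat2 (chr10:128270559-128292849), Irf9 (chr14:55603571-55610030), Oasl2 (chr5:114896936-114912234) and Usp18 (chr6:121245906-121270917) are also on the plus strand. Irf7 (chr7:141262706-141266481), Isg15 (chr4:156199424-156200818) and Bst2 (chr8:71534255-71537456) are on the minus strand. Exons of Irf7 share 45 bases with Phrf1 on the opposite strand, those of Irf9 share 123 bases with Rnf31 on the same strand, and those of Usp18 share 124 bases with the long noncoding RNA Gm44148 on the opposite strand. Reads from bases shared with the opposite strand cannot be told apart without strand, and those shared by Irf9 and Rnf31 not by strand either, so values of the 3 genes are uncertain to that extent.

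The samples held 14199898 to 17561590 fragments each, as recovered from the table. The tissue matched its label, in that 9 muscle fibre markers summed to 26200 to 47900 FPKM while 8 retinal markers summed to at most 1.95 FPKM (the labels' extraction text speaks of retinas). The 6 denervation markers summed to 13.4 to 19.0 FPKM at 0 d and to 51.4 to 503 FPKM later. All comparisons are between tissue homogenates, in which fewer cells of a type and less RNA per cell cannot be told apart. FPKM, fragments scaled to exon length and to the size of the library, is a level per length. Every log2 fold change below was computed from log2(FPKM + 1), and changes of genes with low levels are therefore understated.

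Single samples stood apart in all 9 genes on several days (samples are numbered 1 to 4 at 0 d and lettered a to d later, and values follow in that order). At 1 d, sample d held the highest level of all 9 genes, at 1.76 to 5.61 times the mean of the other 3 samples. At 7 d, sample a held the highest level of all 9 (1.30 to 2.99 times the mean of the other 3) and sample c the lowest of all 9 (0.230 to 0.683 times). At 3 d, sample a was lowest for all 9, and at 5 d sample d was highest for all 9.

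**Figure D1:**
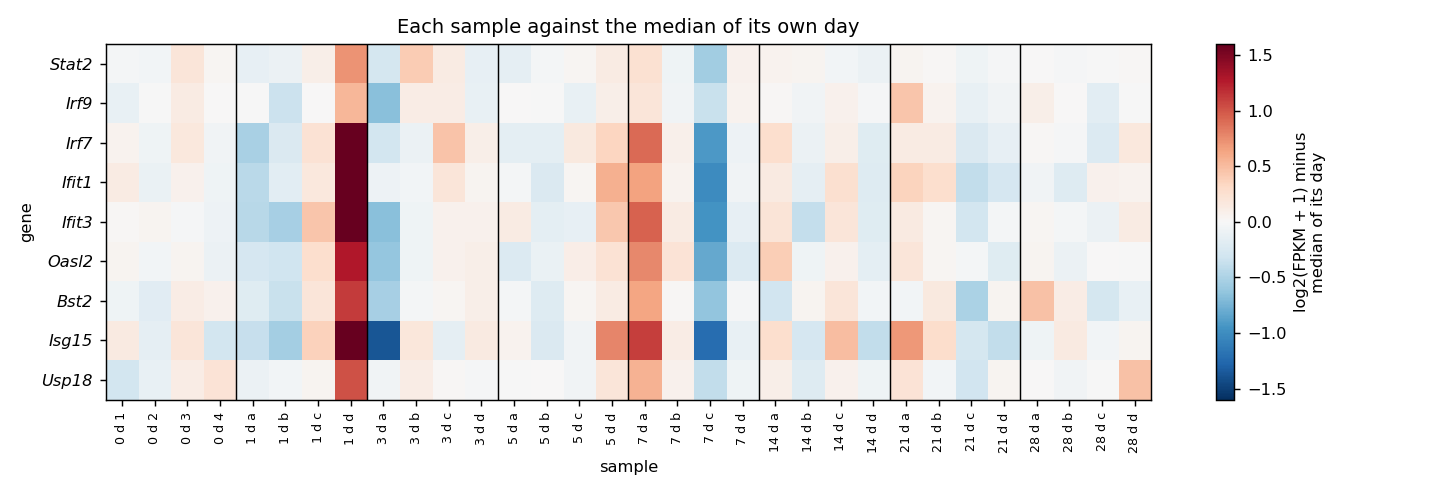
Heat map of log2(FPKM + 1) of each gene (y axis) in each of the 32 samples (x axis, grouped by day), minus the median of the 4 samples of that day, where red is above and blue below that median. Columns of one colour run through all 9 genes at 1 d (sample d, red), 3 d (sample a, blue) and 7 d (sample a, red, and sample c, blue), while the 0 d and 28 d columns are mostly pale.

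Other interferon-related genes were ranked in the same samples. Of 49 other interferon-stimulated effectors tested, 46 were highest in sample d at 1 d, where 41.53% of all genes tested were highest. At 7 d, 42 of the 49 were highest in sample a (23.85% of all genes) and 44 were lowest in sample c (45.91% of all genes). At 3 d, 44 of the 49 were lowest in sample a (57.50% of all genes), and at 5 d 25 of the 49 were highest in sample d (33.06% of all genes). Of 20 interferon-gamma-inducible genes tested, 11 were highest in 1 d sample d, 5 were highest in 7 d sample a, 7 were lowest in 7 d sample c and 12 were lowest in 3 d sample a.

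Markers of infiltrating cells moved with some of these samples. The 4 monocyte markers summed to 55.1 FPKM in sample d at 1 d and to 7.17 to 14.5 FPKM in the other 3 samples of that day. In sample d, Chil3 was at 22.6, Plac8 at 20.6, Ccr2 at 8.46 and Ly6c2 at 3.47 FPKM. The 12 macrophage markers summed to 445 FPKM in that sample against 290 to 318, and the 7 neutrophil markers to 98.2 FPKM against 9.09 to 52.6. Endothelial (109 FPKM) and Schwann cell markers (110 FPKM) also had their highest sums of 1 d in it, where the medians were 92.6 and 38.4 FPKM. Muscle fibre markers had their lowest sum of that day in it (37900 FPKM). At 7 d, samples a and d had the highest macrophage sums (1090 and 1450 FPKM), and sample c had the lowest (502 FPKM), the lowest monocyte sum (9.12 FPKM) and the lowest neutrophil sum (25.3 FPKM) of its day. At 3 d, sample a had the lowest macrophage and monocyte sums, 341 FPKM against 633 to 1220 and 5.34 FPKM against 15.8 to 29.4. The part of these cells in the interferon-stimulated levels was not tested.

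At 0 d, Bst2 had the highest level per length, 13.1 FPKM ± 1.28 (SD, n = 4), and Ifit3 followed with 3.69 FPKM ± 0.181. Isg15 (2.29 FPKM ± 0.527), Stat2 (2.20 FPKM ± 0.252) and Irf9 (2.14 FPKM ± 0.222) came next and did not differ beyond their spread. Ifit1 (1.54 FPKM ± 0.201), Irf7 (1.17 FPKM ± 0.167), Oasl2 (1.00 FPKM ± 0.0927) and Usp18 (0.842 FPKM ± 0.291) were lowest. All 9 genes had their lowest mean at 3 d. Isg15 had its highest mean at 1 d, and the other 8 genes had theirs at 7 d. Without 1 d sample d, the 1 d mean of Isg15 was 5.17 FPKM, under its 7 d mean of 6.84 FPKM.

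**Figure D2:**
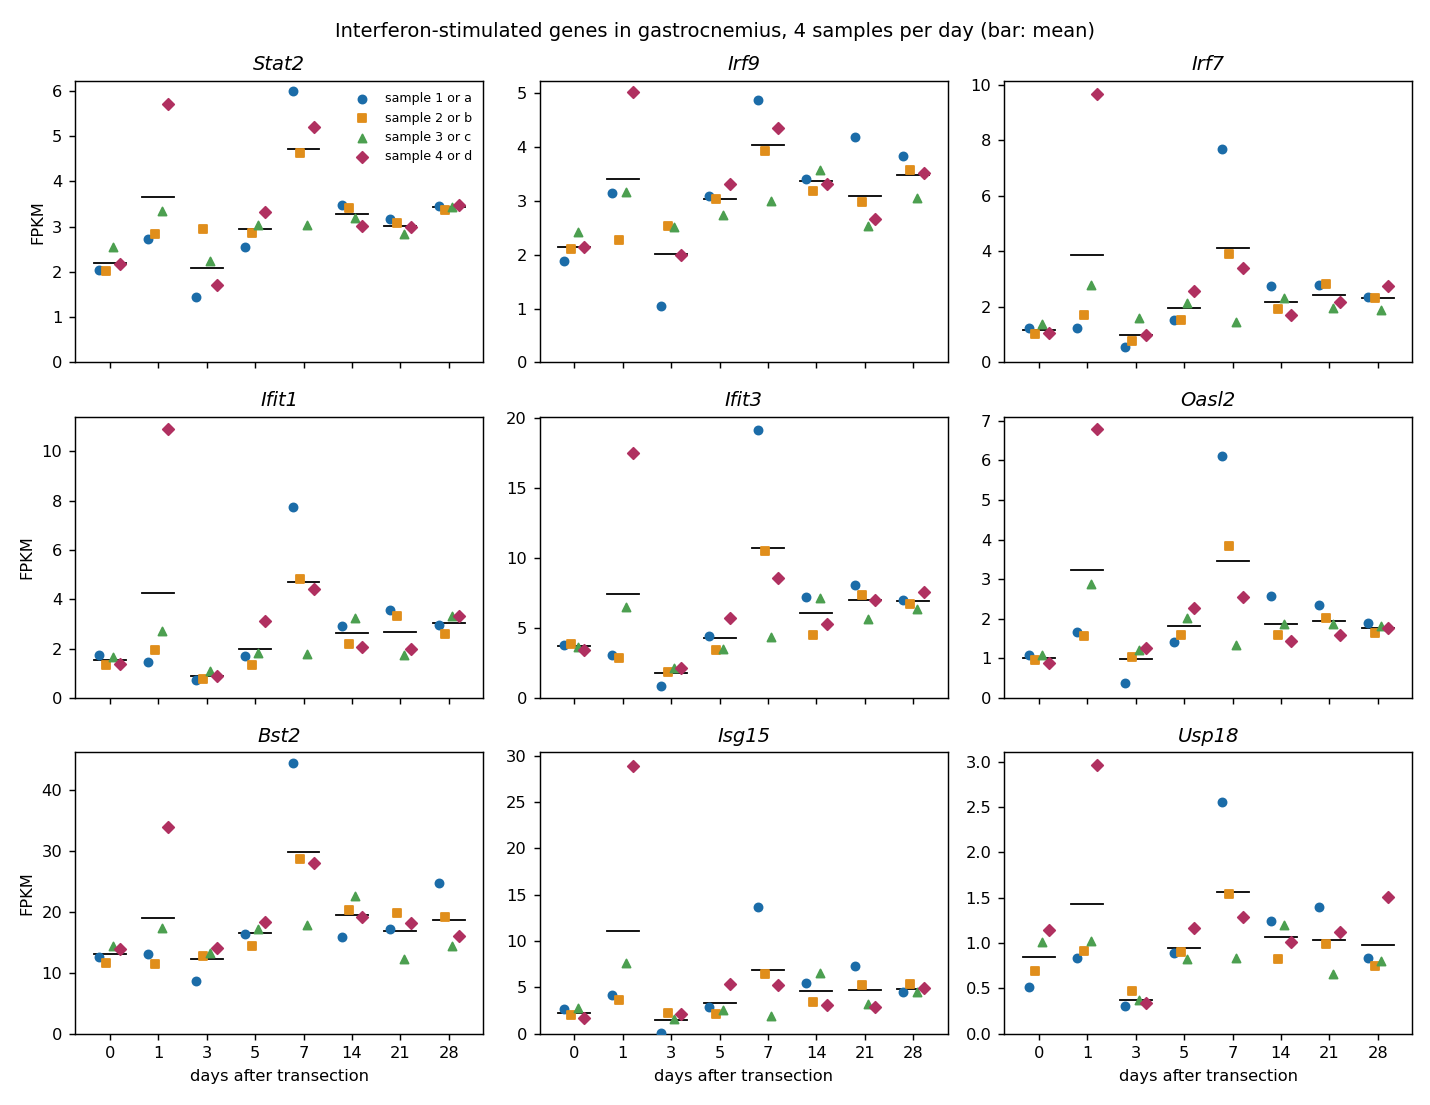
FPKM (y axis, from 0) of the 9 genes at 0 to 28 d (x axis), with 1 point for each of the 4 samples of a day and a black bar at their mean. Means are lowest at 3 d in every panel, and single samples reach far above the others at 1 d (sample d) and 7 d (sample a), as for Isg15 with 28.9 and 13.7 FPKM.

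Stat2, a member of the response element complex, stood at 2.04, 2.02, 2.56 and 2.18 FPKM in the 4 samples at 0 d. At 1 d it stood at 2.72, 2.83, 3.34 and 5.70 FPKM, above every 0 d sample. At 3 d its levels of 1.45, 2.94, 2.25 and 1.72 FPKM spanned the 0 d range. At 7 d it reached 5.99, 4.63, 3.03 and 5.20 FPKM, again with no overlap with 0 d, and even the lowest sample, c, was above the highest 0 d sample. At 14 and 21 d it was at 3.02 to 3.47 and 2.84 to 3.16 FPKM. At 28 d the 4 samples lay together, at 3.45, 3.37, 3.43 and 3.48 FPKM, an SD of 0.0458 against 1.25 at 7 d. Stat2 rose at 7 d with a log2 fold change of 0.81 ± 0.15 (SE) and an adjusted p of 5.54e-05, the lowest of the 9 genes.

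Irf9, the DNA-binding partner in the complex, stood at 1.89, 2.11, 2.43 and 2.14 FPKM at 0 d. It was at 3.15, 2.27, 3.17 and 5.03 FPKM at 1 d, where sample b lay within the 0 d range. At 7 d its 4 samples (4.87, 3.92, 3.00 and 4.36 FPKM) were all above the 0 d samples, and Irf9 rose by 0.67 ± 0.16 on the log2 scale (adjusted p = 0.000734). It was at 3.19 to 3.57 FPKM at 14 d, 2.53 to 4.18 at 21 d and 3.05 to 3.83 at 28 d, each day without overlap with 0 d.

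Irf7, which drives the second wave of interferon production, moved more. Its levels were 1.22, 1.03, 1.39 and 1.05 FPKM at 0 d, and 1.23, 1.72, 2.78 and 9.67 FPKM at 1 d, where sample a lay within the 0 d range and sample d far above. At 3 d it stood at 0.536, 0.760, 1.58 and 1.00 FPKM. At 7 d it stood at 7.69, 3.90, 1.44 and 3.38 FPKM, 3.50 times the 0 d mean, and sample c was only just above the highest 0 d sample. From 14 to 28 d all 12 samples were at 1.72 to 2.82 FPKM and above every 0 d sample.

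Ifit1, an effector that binds foreign RNA, was at 1.76, 1.34, 1.65 and 1.40 FPKM at 0 d. It reached 1.46, 1.96, 2.71 and 10.9 FPKM at 1 d. At 3 d it was at 0.737, 0.788, 1.11 and 0.892 FPKM, below every 0 d sample. At 7 d the 4 samples were at 7.74, 4.81, 1.79 and 4.41 FPKM, and sample c exceeded the highest 0 d sample by little. At 28 d the level was 2.96, 2.58, 3.32 and 3.31 FPKM, above every 0 d and every 3 d sample.

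Ifit3, which works beside Ifit1, was without overlap between 0 and 3 d. It stood at 3.79, 3.88, 3.64 and 3.47 FPKM at 0 d and at 0.898, 1.88, 2.18 and 2.17 FPKM at 3 d, 0.483 times the 0 d mean. It was at 3.07, 2.83, 6.54 and 17.5 FPKM at 1 d, where 2 samples were below and 2 above all 0 d samples. At 7 d it reached 19.2, 10.5, 4.40 and 8.56 FPKM. From 14 to 28 d its 12 samples were at 4.52 to 8.07 FPKM, all above 0 d.

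Oasl2, of the oligoadenylate synthetase-like family that restrains viruses, stood at 1.08, 0.967, 1.08 and 0.889 FPKM at 0 d. At 1 d (1.66, 1.57, 2.88 and 6.78 FPKM) and at 7 d (6.10, 3.85, 1.35 and 2.56 FPKM) all samples were above 0 d. At 3 d its levels of 0.379, 1.03, 1.22 and 1.27 FPKM lay on both sides of the 0 d samples. It was at 1.41 to 2.28 FPKM at 5 d and 1.63 to 1.89 FPKM at 28 d.

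Bst2, a membrane protein that tethers budding virus, was the highest of the set throughout. Its levels were 12.6, 11.6, 14.4 and 13.9 FPKM at 0 d and 13.0, 11.5, 17.3 and 33.9 FPKM at 1 d, which overlapped. At 3 d it was at 8.68, 12.8, 13.3 and 14 FPKM. At 7 d it reached 44.3, 28.6, 17.9 and 27.9 FPKM, 2.26 times the 0 d mean and without overlap. At 21 and 28 d it was at 12.2 to 19.8 and 14.3 to 24.7 FPKM, and on both days 1 of the 4 samples lay within the 0 d range.

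Isg15, the ubiquitin-like modifier, stood at 2.68, 2.00, 2.80 and 1.70 FPKM at 0 d and at 4.21, 3.61, 7.68 and 28.9 FPKM at 1 d, all above 0 d and 4.84 times its mean (2.25 times without sample d). At 3 d sample a was at 0.0929 FPKM, which was 1 fragment, and the others were at 2.21, 1.57 and 2.11 FPKM. At 7 d its levels were 13.7, 6.43, 1.95 and 5.31 FPKM, and sample c fell inside the 0 d range. At 28 d the 4 samples lay between 4.49 and 5.33 FPKM, above every 0 d sample. The enzymes that attach ISG15, Uba7, Ube2l6 and Herc6, were all tested, and none was called at any of the 7 days against 0 d, where 8.84% (1 d) to 19.5% (7 d) of all genes were called in either direction (median log2 fold change -0.31 at 3 d and 0.32 at 7 d).

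Usp18, the protease that reverses ISG15 attachment, was the lowest of the set. It was at 0.512, 0.696, 1.01 and 1.15 FPKM at 0 d, a range of 22 to 51 fragments. At 3 d it was at 0.304, 0.471, 0.374 and 0.340 FPKM (13 to 22 fragments), below every 0 d sample. At 1 d sample d reached 2.97 FPKM while the other 3 lay at 0.833 to 1.02 FPKM, within the 0 d range. At 7 d it was at 2.56, 1.54, 0.832 and 1.29 FPKM, and at 28 d at 0.833, 0.747, 0.802 and 1.51 FPKM, both overlapping 0 d.

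At 1 d, 3 of the 9 genes rose at an adjusted p under 0.05 and at least 1.5-fold by limma, a rule that called 6.34% of all genes higher. Isg15 rose by 1.45 ± 0.45 on the log2 scale (SE, adjusted p = 0.0145), Oasl2 by 0.92 ± 0.27 (0.00833) and Irf7 by 0.87 ± 0.32 (0.042). The levels of 3 genes (Isg15, Stat2 and Oasl2) were above 0 d in every sample, as were those of 19.9% of all genes. The calls rested on sample d. Without it, 0 of the 9 were called by limma, and the log2 fold changes were 0.86 for Isg15 (adjusted p = 0.117), 0.57 for Oasl2 (0.0699) and 0.39 for Irf7 (0.309). With all samples, 6 of the 9 had an unadjusted p under 0.05, as did 37.1% of all genes, and limma-voom called 4 of the 9 and 16.4% of all genes. After median-ratio scaling, Isg15 (1.30, adjusted p = 0.0209) and Oasl2 (0.81, 0.0118) were called and Irf7 (0.75, 0.0593) was not, where 3.81% of all genes were called higher.

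At 3 d, all 9 log2 fold changes against 0 d were below 0, from -0.78 to -0.05 with a median of -0.16, where the median of all genes tested was 0.056. None of the 9 was called by limma, while 19.3% of all genes were called in either direction and 6.03% lower. At an unadjusted p under 0.05 there were 2 of the 9 and 48.6% of all genes, and limma-voom called 0 of the 9 and 31.6% of all genes. Ifit3 (-0.78 ± 0.34, adjusted p = 0.0638), Usp18 (-0.41 ± 0.19, 0.0853) and Ifit1 (-0.43 ± 0.32, 0.315) lay below 0 d in all 4 samples, as did 12.3% of all genes, each with an exact two-sided permutation p of 0.0286, the smallest that 4 against 4 samples allow. The signs of 4 genes, Irf9, Stat2, Oasl2 and Bst2, depended on 3 d sample a and on the scale. With TPM in place of FPKM their changes were 0.02, 0.05, 0.03 and 0.04, and after median-ratio scaling they were -0.30, -0.28, -0.21 and -0.39. After median-ratio scaling Ifit3 was called lower (-1.03, adjusted p = 0.00904), and 5 genes (Ifit1, Ifit3, Isg15, Bst2 and Usp18) lay below every 0 d sample, as did 20% of all genes. Without 3 d sample a, the 3 d changes of Irf9 (0.09), Stat2 (0.03), Oasl2 (0.12) and Bst2 (0.02) were above 0, and those of Irf7 (-0.05) and Isg15 (-0.15) were nearer to 0. Leaving out 1 d sample d brought the adjusted p of Ifit3 to 0.0145 at the same change of -0.78, so that it was called lower. Of the 12 macrophage markers, 11 rose at 3 d, where 13.2% of all genes were called higher. The sums of the 12, 341 to 1220 FPKM, were above the 180 to 262 FPKM of 0 d. Within 3 d, sample a had both the lowest macrophage sum and the lowest level of all 9 genes. Endothelial markers summed to 50.2 to 72.5 FPKM at 3 d, lowest in sample a, against 85.2 to 96.7 FPKM at 0 d, with 3 of 6 called lower. Of the 9 muscle fibre markers, 5 were called lower at 3 d, with sums of 26800 to 30900 FPKM against 45100 to 47900 FPKM at 0 d. The part of these cell types was not tested.

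Between 1 and 3 d, 6 of the 9 genes fell in the fit of all 32 samples, a direction in which that fit called 3.93% of all genes. Isg15 fell by 1.95 on the log2 scale (SE 0.45, adjusted p = 0.00111), Ifit3 by 1.32, Ifit1 by 1.17, Irf7 by 1.03, Oasl2 by 0.97 and Usp18 by 0.75, with adjusted p from 0.00111 to 0.0141. Mean levels at 3 d were 0.135 (Isg15) to 0.303 (Oasl2) times those at 1 d for these 6 genes. Without 1 d sample d the ratios of the 6 ran from 0.289 (Isg15) to 0.507 (Irf7), with Oasl2 at 0.479. With only the samples of 1 and 3 d in the fit, 2 of the 9 were called. Without sample d of 1 d, 4 of the 9 were called (Ifit1, Ifit3, Isg15 and Oasl2). Without 1 d sample d, 3 d sample a and 7 d sample a together, an omission chosen after seeing the data, 3 were called, with log2 fold changes of -0.64 for Ifit1, -0.67 for Ifit3 and -1.01 for Isg15.

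At 5 d, none of the 9 was called against 0 d by limma, where 18.8% of all genes were called in either direction. At an unadjusted p under 0.05 there was 1 of the 9 and 50.7% of all genes, and limma-voom called 0 of the 9 and 32.1% of all genes. Irf7, Irf9 and Oasl2 were above 0 d in every sample, as were 35.9% of all genes. Between 3 and 5 d, Ifit3 rose by 0.93 ± 0.34 (adjusted p = 0.0456), and the other 8 genes were not called, where 3.72% of all genes were called higher. That call did not outlast the omission of any 1 sample of 0, 5 or 28 d, nor of 3 d sample a, without which its log2 fold change was 0.76 (adjusted p = 0.159).

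At 7 d, 7 of the 9 genes rose, in a comparison that called 15.4% of all genes higher. They were Ifit3 (1.16 ± 0.34, adjusted p = 0.00575), Irf7 (1.09 ± 0.32, 0.00612), Ifit1 (1.06 ± 0.32, 0.00804), Bst2 (1.05 ± 0.24, 0.000651), Oasl2 (1.04 ± 0.27, 0.00178), Stat2 and Irf9. All 7 were above 0 d in 4 of 4 samples, as were 32.4% of all genes, and each had an exact permutation p of 0.0286. After median-ratio scaling, 4 (Irf9, Stat2, Oasl2 and Bst2) were above 0 d in every sample, as were 18.3% of all genes. Isg15 (1.04 ± 0.45, adjusted p = 0.0594) and Usp18 (0.44 ± 0.19, 0.0578) did not pass. The median of the 9 log2 fold changes was 1.04, and that of all genes tested was 0.131. Leaving out any 1 sample, 7 d sample a included, gave 7 to 9 calls. The step from 5 to 7 d itself called none of the 9 by limma, where 0.657% of all genes were called. At an unadjusted p under 0.05 there were 5 of the 9 and 11.9% of all genes, and limma-voom called 0 of the 9 and 0.966% of all genes.

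**Figure D3:**
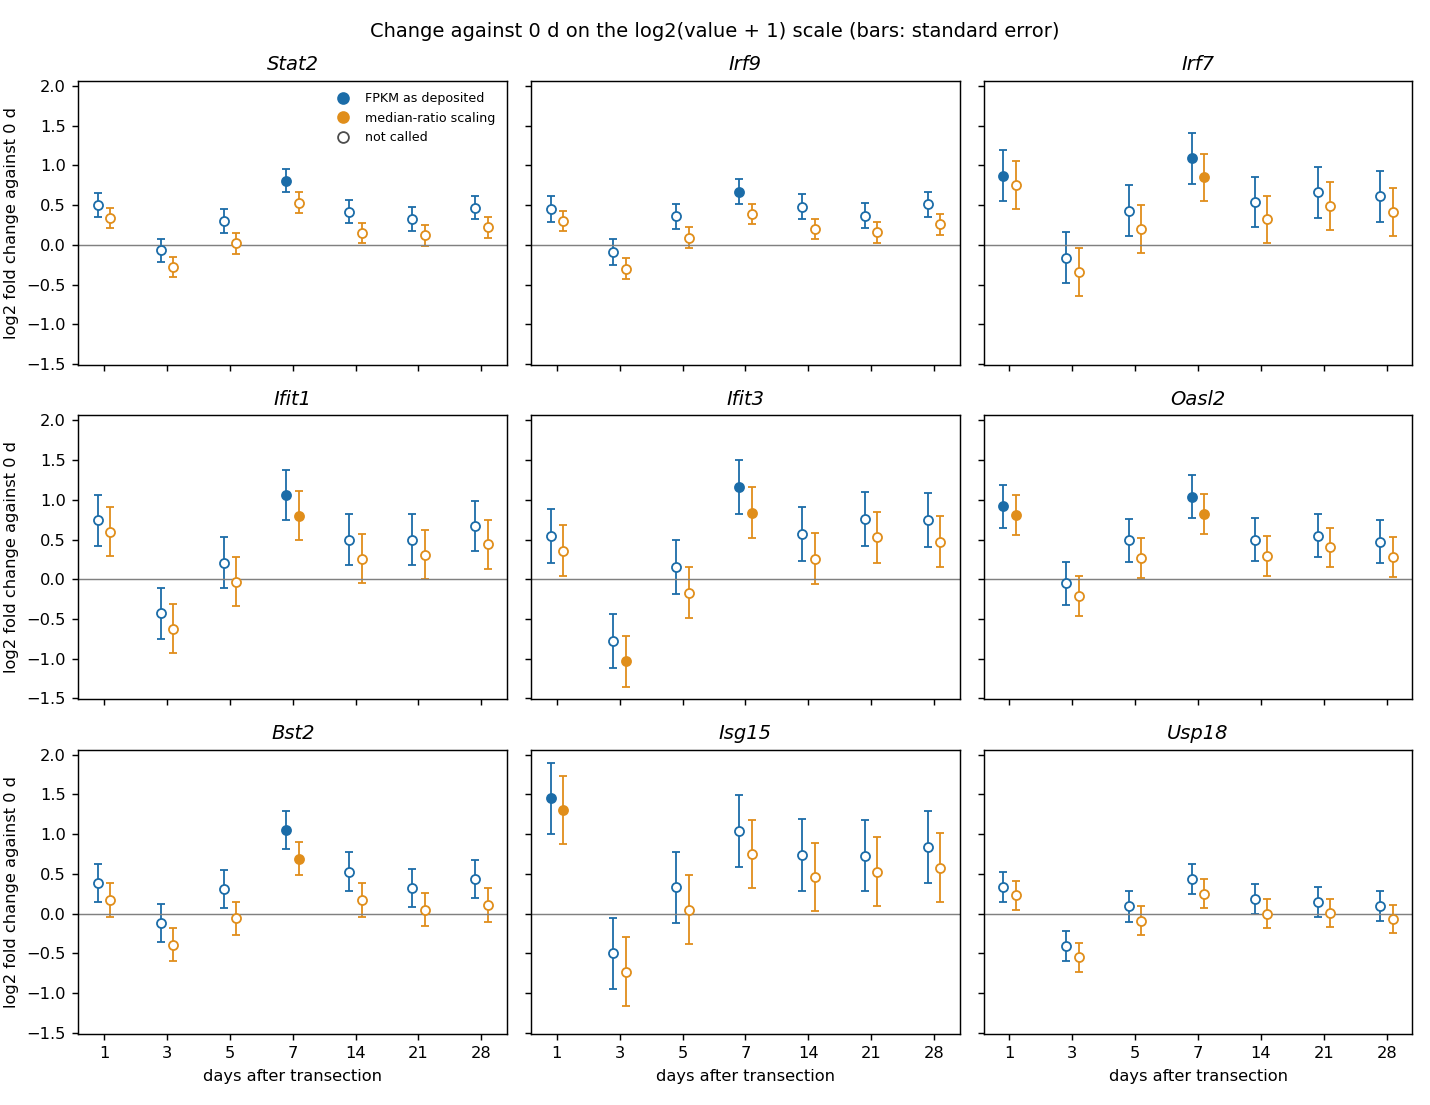
Log2 fold change against 0 d (y axis, log2(value + 1) scale, bars are standard errors) of the 9 genes at 1 to 28 d (x axis), from FPKM as deposited (blue) and after median-ratio scaling (orange), with filled points for genes called. Median-ratio scaling lowers all points, from 7 to 5 calls at 7 d, and brings the 14 to 28 d points of Usp18 to about 0.

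The scale of the values bore on these differences. Among genes with a mean of at least 1 FPKM, the median log2 fold change at 7 d was 0.32 in FPKM and 0.02 after median-ratio scaling. Among all genes called at 7 d, 79.0% were higher in FPKM and 47.4% after that scaling. After it, 5 of the 9 genes and 7.15% of all genes were called higher at 7 d, the 5 being Irf7 (0.85), Ifit3 (0.84), Oasl2 (0.82), Ifit1 (0.80) and Bst2 (0.69), while Stat2 (0.53, adjusted p = 0.00116) and Irf9 (0.39, 0.0192) were under 1.5-fold. The share of fragments from mitochondrially encoded genes was 14.47% to 18.21% at 0 d and 6.70% to 11.29% at 7 d. Macrophage markers rose as well at 7 d (11 of 12, where 15.4% of all genes were called higher), with sums of 502 to 1450 FPKM. Their part in the result was not tested. NK cell markers summed to 2.73 to 5.70 FPKM at 7 d against 0.310 to 0.700 FPKM at 0 d, with 1 of the 7 called. They summed to 0.944 to 7.37 FPKM at 5 d, when none of the 9 genes was called, and to 2.29 to 3.29 FPKM at 28 d.

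From 14 to 28 d the group means sat between those of 0 d and 7 d. None of the 9 was called by limma at 14 d (18.5% of all genes called in either direction), 21 d (15.7%) or 28 d (18.3%). At an unadjusted p under 0.05 there were 3, 4 and 4 of the 9 genes on these days, and 52.7%, 47.8% and 53% of all genes. Of the 9, limma-voom called 1, 0 and 2, and of all genes 33.2%, 27.9% and 33.4%. The limma error of each gene was pooled over all 32 samples, and so took in the spread of 1 d and 7 d. With only the groups compared in the fit, 1, 3 and 4 of the 9 were called at 14, 21 and 28 d. That fit called 11.2% to 24% of all genes over the 7 days against 0 d. Median log2 fold changes of the 9 were 0.50, 0.50 and 0.51, against 0.145, 0.101 and 0.139 over all genes. The levels were above 0 d in every sample for 8 of the 9 genes at 14 d (36.8% of all genes), 6 at 21 d (32.9%) and 7 at 28 d (36.6%).

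The 12 samples of 14, 21 and 28 d together were all above the 4 samples of 0 d for Ifit3, Isg15, Irf7, Irf9, Stat2 and Oasl2, 6 of the 9 genes, against 27.7% of all genes, with an exact permutation p of 0.000549 each, the smallest that 12 against 4 samples allow. By limma only Ifit3 rose in this comparison (0.70 ± 0.28, adjusted p = 0.0366), where 13.3% of all genes were called higher. The call was lost after median-ratio scaling (0.42, adjusted p = 0.199), with quantile normalization, with no filter and with totals that left out mitochondrially encoded genes. It was also lost without any 1 of the 0 d samples, or without 14 d sample a or c. Ifit3b, a near-identical copy of Ifit3 treated below, was called lower by limma in this comparison (-0.71 ± 0.2, adjusted p = 0.00392). Irf9 (0.45 ± 0.13, 0.00373) and Stat2 (0.41 ± 0.12, 0.00685) passed the adjusted p but not 1.5-fold. After median-ratio scaling, 1 gene was fully above 0 d at 14 d (Irf9) and 3 at 21 d, with 19.9% of all genes on each of these days, while the 7 of 28 d were still above, a day on which 21.4% of all genes were above on that scale.

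Consecutive late steps called none of the 9 by limma or limma-voom. From 7 to 14 d, limma called 0.634% of all genes and limma-voom 1.07%, with 2 of the 9 and 13.2% of all genes at an unadjusted p under 0.05. From 14 to 21 d these shares were 0.453%, 0.716% and 13.2%, and from 21 to 28 d 0.199%, 0.277% and 9.13%, with 0 of the 9 at an unadjusted p under 0.05 in both steps. At 28 d against 7 d all 9 log2 fold changes were below 0, from -0.61 to -0.15. None was called by limma (2.96% of all genes) or limma-voom (5.52%), with 3 of the 9 and 23.9% of all genes at an unadjusted p under 0.05. Against 3 d, 4 of the 9 rose by 28 d, namely Ifit3 (1.54 ± 0.34, adjusted p = 0.000593), Isg15 (1.34 ± 0.45, 0.02), Ifit1 (1.10 ± 0.32, 0.00779) and Irf9 (0.60 ± 0.16, 0.00288), where 7.46% of all genes were called higher. Without 3 d sample a, 2 were called. All 9 genes were higher in every 28 d sample than in every 3 d sample, as were 20.7% of all genes.

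The macrophage sums were at 582 to 677 FPKM at 28 d and at 341 to 1220 FPKM at 3 d, the day on which all 9 genes had their lowest mean. Plasmacytoid dendritic cells, the best known interferon producers, were followed by 6 markers, with Cox6a2 left out because muscle itself expresses it (529 to 1170 FPKM). Those 6 summed to 0.850 to 1.11 FPKM at 0 d, 1.03 to 2.67 FPKM at 21 d and 1.90 to 3.49 FPKM at 28 d. At 1 d their sum was 0.348 FPKM in sample d, the lowest of that day. At 7 d it was 1.26 to 2.06 FPKM, highest in sample a. Siglech, their defining marker, was at 0.617 FPKM in that sample, with a 7 d mean of 0.653 FPKM, and at 0.183 to 1.18 FPKM over the 32 samples.

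**Figure D4:**
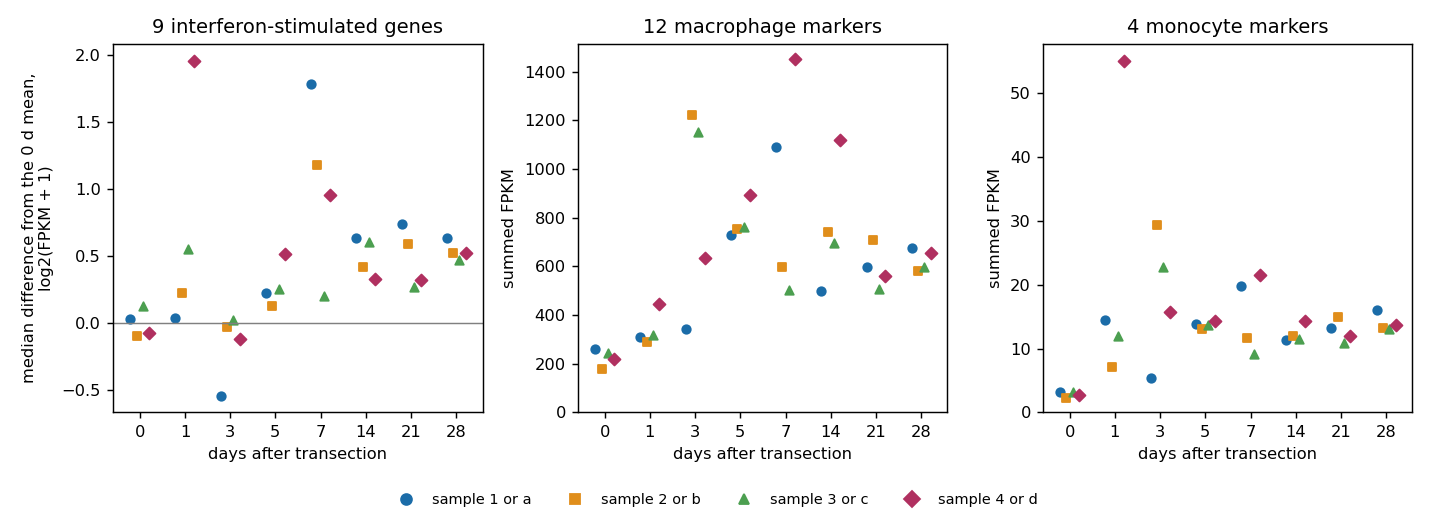
Left, the median over the 9 genes of the difference from the 0 d mean in log2(FPKM + 1). Middle and right, the summed FPKM (y axes from 0) of 12 macrophage and 4 monocyte markers, each with 1 point per sample at 0 to 28 d (x axes). Sample d of 1 d is highest in the left panel (1.96) and for monocyte markers (55.1 FPKM), whereas at 3 d macrophage markers reach 1220 FPKM with the left panel at -0.54 to 0.02.

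The ligands themselves were barely measured. Of 20 type I and III interferon genes listed, 3 were in the table (Ifnab, Ifnz and Ifnk), with 0 to 3 fragments in any sample, and none passed the filter. Ifnb1 was among the listed genes not found in the table, so its level is not known. Ifng, the type II interferon, had 0 to 2 fragments in any sample and was above 0 in 9 of the 32 samples. At these depths a count of 0 allows up to 3 fragments, so that differences between days were not detectable.

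Of 9 receptor chains and kinases, 8 were tested. Ifnar2, the signalling subunit of the type I receptor, rose at 5, 7, 14 and 28 d, by 0.71 ± 0.14 at 14 d (adjusted p = 0.000123). Ifnar1, its partner, was not called on any day, with 0.47 ± 0.13 at 7 d (adjusted p = 0.00455). Tyk2, the kinase bound to Ifnar1, rose by 0.84 ± 0.11 at 5 d (4.78e-07), and Ifngr2, a chain of the type II receptor, fell by 1.05 at 21 d (1.81e-09). At 7 d, 2 of the 8 tested genes were higher and 1 was lower, where 15.4% of all genes were higher and 4.1% lower.

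Among other interferon regulatory factors, Irf3, the factor that first switches on interferon, rose by 0.82 ± 0.07 at 7 d (4.39e-11), and Irf8, a factor of myeloid cells, by 0.81 ± 0.16 (0.000109).

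Of 15 nucleic acid sensors and adaptors tested, 6 were higher at 1 d, 6 at 3 d and 9 at 7 d, and none was lower on these days. Over all genes, 6.34%, 13.2% and 15.4% were higher on these days. Myd88, the adaptor of most Toll-like receptors, rose by 1.28 ± 0.11 at 1 d (4.83e-10) and Tbk1, the kinase that phosphorylates IRF3, by 1.12 ± 0.06 (1.53e-14). Tmem173, which encodes STING, rose by 1.16 ± 0.15 at 28 d (3.48e-07), and Zbp1, a nucleic acid sensor that is itself interferon-stimulated, by 1.09 ± 0.28 at 7 d (0.00203).

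Of the 49 other interferon-stimulated effectors, 12 were higher at 1 d, 3 higher and 2 lower at 3 d, 20 higher at 7 d and 7 higher and 1 lower at 28 d. The shares of all genes called higher were 6.34%, 13.2%, 15.4% and 14.2% on these days, and 6.03% were lower at 3 d and 4.1% at 28 d. The median log2 fold changes of the 49 were 0.37 at 1 d, 0.05 at 3 d and 0.52 at 7 d. Ifitm1, which blocks viral entry, rose by 1.5 ± 0.23 at 1 d (6.28e-06), Oas2, a sensor of double-stranded RNA, by 1.18 ± 0.21 at 7 d (3.43e-05), and Ifitm3 by 1.34 ± 0.21 at 14 d (3.7e-06). Between 1 and 3 d, 9 of the 49 fell and none rose, where 3.93% of all genes fell.

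Of 20 interferon-gamma-inducible GTPases and chemokines tested, 8 were lower and 1 higher at 3 d, with a median log2 fold change of -0.43, where 6.03% of all genes were lower and 13.2% higher. At 7 d, 11 were higher and 1 lower, with a median of 0.61, where 15.4% of all genes were higher and 4.1% lower. Irgm1, a GTPase of the autophagy machinery, rose by 1.46 ± 0.08 at 14 d (5.64e-15), Iigp1 by 1.14 ± 0.15 at 7 d (1.68e-07), and the chemokine Cxcl10 by 1.91 ± 0.36 at 5 d (6.08e-05), while Gbp10 fell by 1.27 at 1 d (7.05e-08). Gbp5, named after its values were seen, had means of 1.76, 0.589 and 3.28 FPKM at 0, 3 and 7 d and fell by 0.80 at 3 d (9.96e-09).

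Of 7 brakes on interferon signalling, 2 were higher at 1 d, 2 at 3 d and 1 at 7 d, with median log2 fold changes of 0.02, -0.17 and 0.08, where 6.34%, 13.2% and 15.4% of all genes were higher. Socs3, an inhibitor of the Janus kinases, rose by 2.09 ± 0.25 at 1 d (1.43e-07), from 2.22 to 13.0 FPKM on average. Ptpn2, a phosphatase that acts on Janus kinases, rose by 1.15 ± 0.10 at 3 d (9.36e-11), the day on which its mean was highest (12.1 FPKM). Socs1, the feedback inhibitor closest to interferon, was not called on any day and had means of 0.436 and 0.230 FPKM at 0 and 3 d. Trim24 fell by 0.60 at 28 d (3.17e-08).

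**Figure D5:**
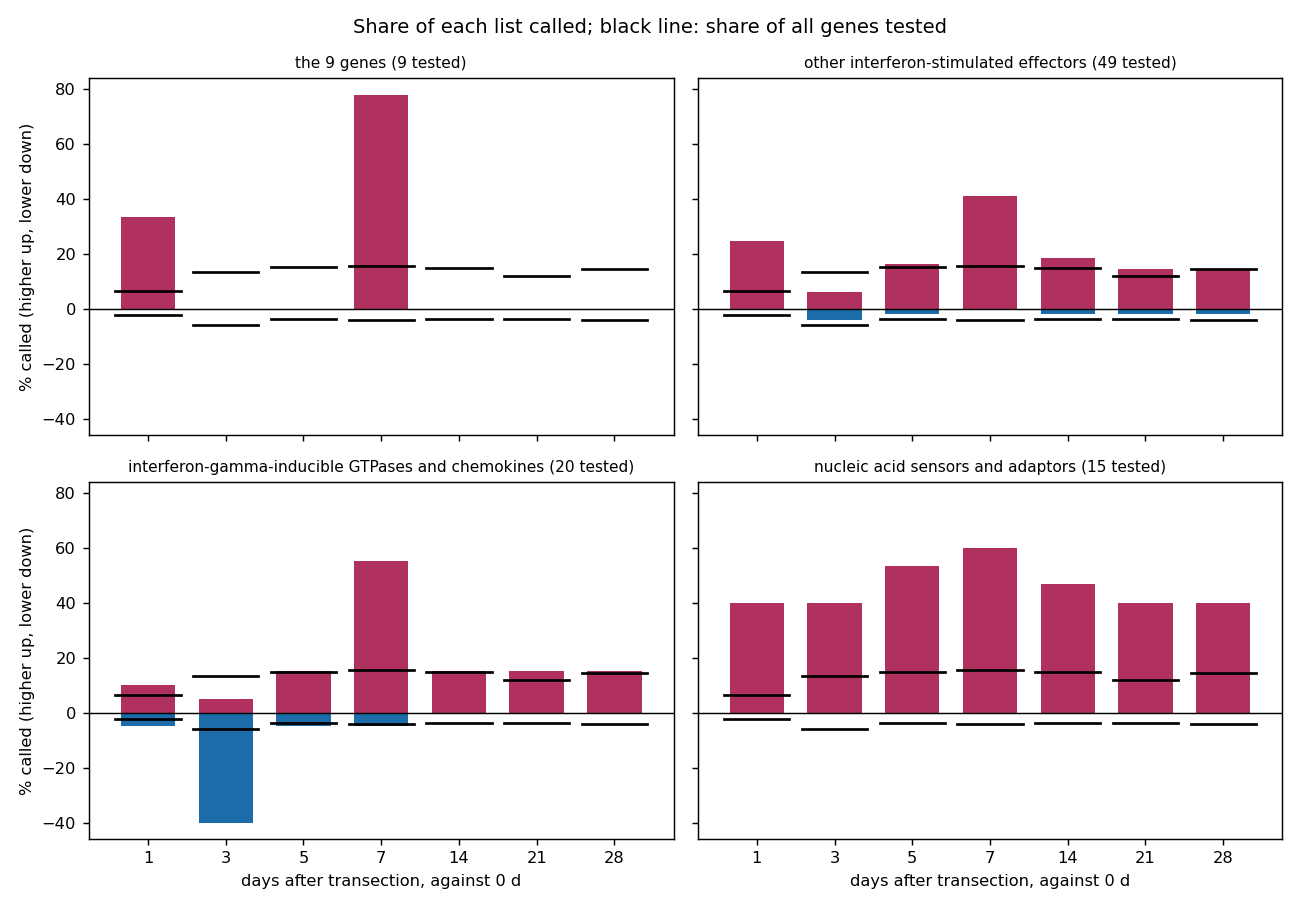
Percent of the tested genes of 4 lists called higher (red, upwards) and lower (blue, downwards) against 0 d (y axis) at 1 to 28 d (x axis), with black lines at the percent of all genes tested. The 9 genes, the 49 effectors and the 20 interferon-gamma-inducible genes peak at 7 d, and 8 of those 20 are lower at 3 d, whereas 6 of the 15 sensors and adaptors are higher on that day.

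Over the 8 group means, the genes whose pattern was most like the mean pattern of the 9 were Rtp4 (Pearson r = 0.992), Phf11d (0.986), Dcaf5 (0.979), Irgm2 (0.976), C9orf72 (0.974), Parp12 (0.972), Ifih1 (0.960) and Ddx58 (0.955), out of 11934 genes with a mean of at least 1 FPKM. Each r is a description over 8 means that share samples. Of these 8 genes, 6 were in the lists above, and Dcaf5 and C9orf72 were not. Rtp4 went from 2.38 FPKM at 0 d to 4.89, 1.79 and 5.87 FPKM at 1, 3 and 7 d, and Dcaf5 only from 8.97 to 10.5, 8.63 and 10.6 FPKM. The 9 genes had r of 0.926 to 0.991 with their own mean.

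Ifit3 has a near-identical copy, Ifit3b, whose transcript matched that of Ifit3 at 98.0% of 1697 aligned bases, so that the split of reads between them is uncertain. Ifit3b stood at 3.83, 3.28, 3.47 and 4.13 FPKM at 0 d and fell at 3 d, by 1.60 on the log2 scale (SE 0.25, adjusted p = 3.17e-06), to 0.359, 0.478, 0.798 and 0.533 FPKM. At 28 d it was at 1.64 to 2.29 FPKM, lower than at 0 d (-0.67 ± 0.25, adjusted p = 0.0254), while all 28 d samples of Ifit3 were above 0 d. The summed level of both genes was 7.11 to 7.62 FPKM at 0 d, 1.26 to 2.98 FPKM at 3 d and 4.88 to 7.07 FPKM at 5 d, below every 0 d sample on both of these days. It was 4.19 to 23.6 FPKM at 1 d, 5.92 to 24.3 FPKM at 7 d, 6.10 to 9.52 FPKM at 14 d and 7.09 to 10.2 FPKM at 21 d, each with samples above and below the 0 d range. At 28 d it was 8.19 to 9.64 FPKM, above every 0 d sample.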

How the data were processed

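RNA-seq was measured in 32 GAS samples. The authors deposited FPKM values for 33397 genes. Per the labels' processing notes, CASAVA, HISAT2 2.1.0 and DESeq2 were used on GRCm38. How they counted, and whether by strand, is not given in the sources used here. The values fitted whole fragments over GENCODE M21 exon length for 33356 genes, with 99.3% or more of values under 200 fragments within 0.05 of a whole number, and 41 genes had no match. Columns named days but no sample of the labels, so they served as 4 replicates of a day. The study describes its samples as biologically independent, and the labels do not tie them to animals.

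Log2(FPKM + 1) was fitted with limma 3.58.1 in R 4.3.3 (variance trend, all 32 samples) for genes at 0.1 FPKM or more in at least 4 samples. A gene was called at a Benjamini-Hochberg adjusted p under 0.05 over all 22071 genes and 1.5-fold. The step was also run on simulated data with the same dispersion for all genes. No simulated sample stood apart, and as many genes rose as fell, so the run does not bear on those features of the data. Exact permutation tests over samples were two-sided. limma-voom was also run on the recovered fragments, on which it called 7367 genes at 7 d against 4308. The 9 genes and all lists were chosen with earlier results of these data known. Genes named were the 9, up to 4 per list with the largest change among those called, Ifnb1, Ifng, Ifnar1 and Ifnar2, the 8 most alike, and overlapping or near-identical genes, and 1 further gene of that rule is not reported here. Socs1, Gbp5 and the ISG15-attaching enzymes were named in addition. Biopython 1.88 aligned the Ifit3 copies.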

Additional observations from a re-analysis of the deposited data

Results flagged for a closer look

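In 4 of 72 groups of 4 samples (9 genes on 8 days), the highest sample lay further from the others than a range test at 95% allows for. Chance marks about 1 group in 20, or 3.6 of 72, so the number itself is near that of chance. The 3 at 1 d were all in sample d, with Ifit1 at 10.9 FPKM (others 1.46 to 2.71), Isg15 at 28.9 FPKM (others 3.61 to 7.68) and Usp18 at 2.97 FPKM (others 0.833 to 1.02). The fourth was Usp18 at 28 d in sample d, at 1.51 FPKM against 0.747 to 0.833.

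The changes against 0 d differed between days by the test of the days themselves for 6 genes between 1 and 3 d, with log2 fold changes of -1.17 (Ifit1), -1.32 (Ifit3), -1.95 (Isg15), -1.03 (Irf7), -0.97 (Oasl2) and -0.75 (Usp18). They differed between 3 and 5 d for Ifit3 (0.93), and between 3 and 28 d for Ifit1 (1.10), Ifit3 (1.54), Isg15 (1.34) and Irf9 (0.60).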

How the results depend on the processing

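Counts below are of the 9 genes called. Over all genes, 8.84% to 19.5% were called on the 7 days against 0 d, 15% to 34.5% with TPM, 16.4% to 33% with a pseudocount of 0.1, 11.7% to 24.5% with one of 0.5, 14.8% to 33.2% with a mean of at least 1 FPKM, 11.2% to 24% with only the groups compared, 29.4% to 47.7% by adjusted p only, 16.4% to 33.4% by limma-voom and 2.67% to 7.58% at 2-fold. The shares were 5.73% to 12.7% with no filter, 9.03% to 18% with median-ratio scaling and 8.35% to 17.6% with quantile normalization. With totals without mitochondrially encoded genes they were 9.19% to 19.1%. At 7 d against 0 d, 5 to 9 were called under every alternative. Against 0 d at 1 d (3 called), 5 were called with a pseudocount of 0.1, with TPM and by adjusted p only, and 1 at 2-fold. At 3 d (0 called), 2 were called with a pseudocount of 0.1 or 0.5, and 1 with a mean of at least 1 FPKM, median-ratio scaling, quantile normalization, totals without mitochondrially encoded genes, or only the groups compared in the fit. At 5 d (0), TPM gave 1. At 14 d (0), TPM gave 4, adjusted p only 2, and a pseudocount of 0.1, only the groups compared and limma-voom 1 each. At 21 d (0), TPM and only the groups compared gave 3, and a mean of at least 1 FPKM gave 1. At 28 d (0), TPM gave 6, only the groups compared 4, a pseudocount of 0.1, adjusted p only and limma-voom 2, and a pseudocount of 0.5 and a mean of at least 1 FPKM 1. For 14, 21 and 28 d together (1), TPM gave 8, a pseudocount of 0.1 gave 5, a pseudocount of 0.5, only the groups compared and adjusted p only gave 3, and a mean of at least 1 FPKM gave 2. No filter, median-ratio scaling, quantile normalization, totals without mitochondrially encoded genes and 2-fold gave 0. Of all 22071 genes, 6854 were called in that joint comparison with TPM, against 3792 with FPKM. Between 1 and 3 d (6), only the groups compared gave 2, 2-fold gave 4 and the other alternatives with all samples gave 6 to 8. Between 3 and 5 d (1), a pseudocount of 0.1 and only the groups compared gave 3, a pseudocount of 0.5, TPM, adjusted p only and limma-voom gave 2, and no filter, median-ratio scaling, quantile normalization and 2-fold gave 0. Between 3 and 28 d (4), both pseudocounts and TPM gave 7. With 1 d sample d, 3 d sample a and 7 d sample a all left out, a choice made after seeing the data, the counts were 1 at 1, 3 and 14 d, 3 at 21 d, 4 at 28 d, 3 for 14 to 28 d together, 3 between 1 and 3 d, and 2 between 3 and 5 d. Of all genes, 8.35% to 20.9% were then called on the 7 days against 0 d.

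Genes above every 0 d sample at 5 d (3) were 6 with TPM (42.8% of all genes) and 1 with median-ratio scaling (19.5%) or quantile normalization (19.8%). Under those 2 scalings they were 4 at 7 d (7), 1 at 14 d (8) and 3 at 21 d (6). The shares of all genes were 18.3% under both at 7 d, 19.9% and 18.6% at 14 d, and 19.9% and 19.4% at 21 d. The change of Usp18 over 14 to 28 d (0.14) turned to -0.02 with median-ratio scaling and -0.05 with quantile normalization, and none of these was called. Changes within 0.31 of 0 and not called also changed sign, for 4 genes at 3 d with TPM and for Ifit1, Ifit3, Bst2 and Usp18 at 5 d with either scaling. Leaving out 1 sample at a time gave 0 to 5 calls at 1 d, 0 to 1 at 3 d, 0 at 5 and 14 d, 7 to 9 at 7 d, 0 to 2 at 21 d, 0 to 3 at 28 d, 0 to 3 for 14 to 28 d together, 4 to 9 between 1 and 3 d, 0 to 2 between 3 and 5 d, 0 to 3 between 5 and 7 d, 2 to 5 between 3 and 28 d, and 0 to 2 between 7 and 28 d. The cause was not tested.

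No paired analysis was possible because the columns carry letters or numbers of their own and not the sample numbers of the labels. Interferon transcripts, at 0 to 3 fragments a sample, were beyond this depth.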
